A study of Mus musculus with 12 samples.

Results

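The genes described here are 10 G protein-coupled receptors for serotonin and acetylcholine that are expressed in the mouse brain, namely the serotonin receptor genes Htr1a, Htr1b, Htr2a, Htr2c, Htr4 and Htr7 and the muscarinic receptor genes Chrm1, Chrm2, Chrm3 and Chrm4. They were chosen by name and not by a measured value, although earlier results of these data were known. All 10 were found among the 20504 entries of the CDS count table and in the exon count table. The libraries came from 6 adult mice (3 months old) in which Cre under the Camk2a promoter, active in principal excitatory neurons of the forebrain, switches the ribosomal protein Rpl22 to a hemagglutinin-tagged form (Camk2a-RiboTag). All mice carried these alleles, and each library came from the tissue of 1 animal. Mice A and B received vehicle by gavage (the labels call them untreated), and mice C and D received 100 mg/kg of AZD-8055, a compound that blocks the kinase mTOR at its ATP site. Tissue of the right frontal lobe was taken 1 h later, and each of these 4 mice gave a ligation-free ribosome profiling library and a poly(A) RNA-Seq library from whole lysate. Mice E and F, labelled untreated, each gave an RNA-Seq library of whole homogenate (input) and of polysomes immunoprecipitated through the tag (IP).

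Serotonin reaches the forebrain from the raphe nuclei, and acetylcholine reaches it from the basal forebrain and from local cholinergic neurons. Their metabotropic receptors signal through 3 classes of G protein. Gi/o proteins inhibit adenylyl cyclase and open inward rectifier potassium channels, and they serve the receptors encoded by Htr1a, Htr1b, Chrm2 and Chrm4. Gq/11 proteins activate phospholipase C and release calcium, and they serve Htr2a, Htr2c, Chrm1 and Chrm3. Gs proteins stimulate adenylyl cyclase and serve Htr4 and Htr7. Ribosome profiling counts the mRNA fragments that ribosomes protect, and the ratio of footprint to RNA-Seq counts on the coding sequence (CDS), after scaling by size factors, is the translation efficiency (TE). The TE of a bulk lysate combines all cell types, and a lower RNA level in it cannot tell fewer cells of a type from less RNA per cell.

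The depth of the libraries set what could be measured for these genes. The CDS totals were 9259938, 4551357, 3503873 and 4759336 footprints (mice A to D in turn), and between 9309496 and 15585831 reads in the 8 RNA-Seq libraries. The exon totals of the RNA-Seq libraries lay between 16796999 and 27878212 reads. Both libraries of each group differed by more than counting error, so none was counted as a duplicate. A TE was read only where footprints and RNA-Seq each had at least 75 counts over both mice, and a gene entered a test if its libraries held 37 counts or more on average. Of the 10 receptors, 8 passed the limit for a TE in the vehicle-treated mice, and 9 entered the tests of TE. Htr4, a Gs-coupled receptor, passed neither limit, and Htr7, the other Gs-coupled receptor, passed only the second.

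**Figure D1:**
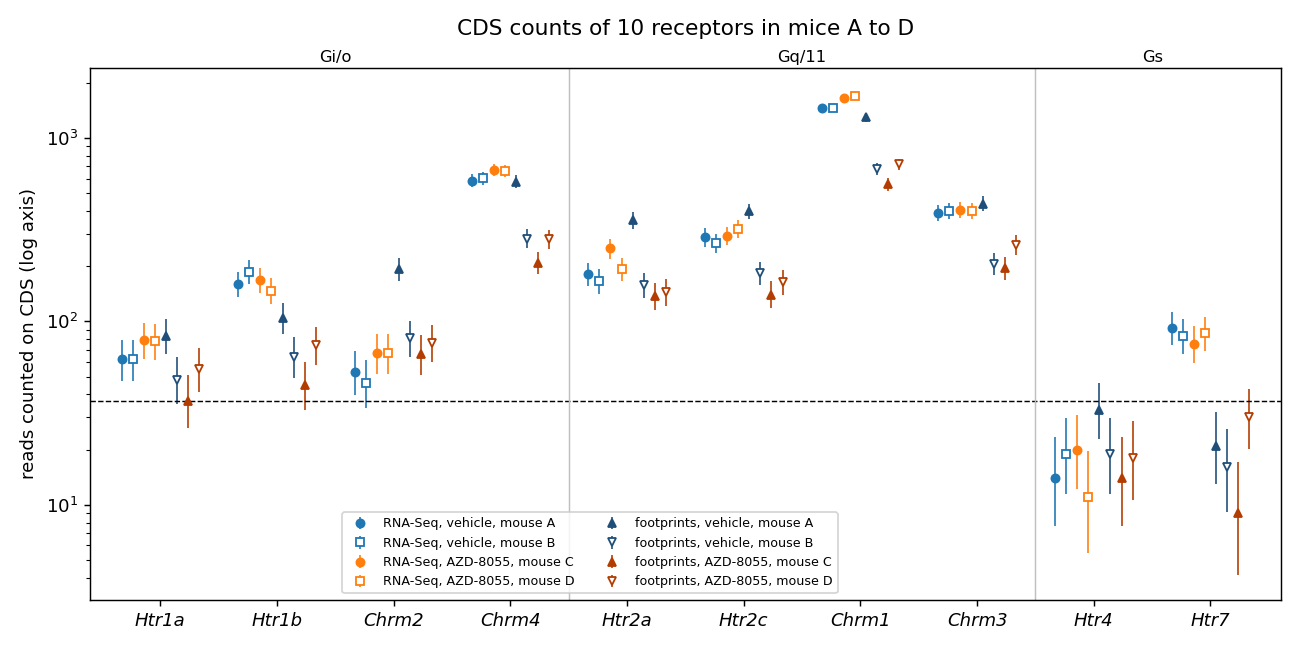
Reads counted on the CDS of 10 receptor genes (log axis, not scaled for depth) in the footprint and RNA-Seq libraries of mice A to D. Points are libraries, bars are exact 95% Poisson intervals and the dashed line marks 37 counts. Htr4 lies under the line in all 8 libraries and Htr7 in its 4 footprint libraries.

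Chrm1, the main muscarinic receptor of cortical pyramidal neurons, had the highest counts of the 10 genes. Its CDS was covered by 1296 and 680 footprints in mice A and B and by 1456 and 1452 RNA-Seq reads. As CPM, the read count scaled to the CDS total of its library, it stood at 145 to 163 in the 6 whole-tissue RNA-Seq libraries. At the other end, Htr4 had 33 and 19 footprints and 14 and 19 RNA-Seq reads in mice A and B. In mice C and D it had 14 and 18 footprints and 20 and 11 RNA-Seq reads. The exact 95% Poisson interval of the 11 reads in mouse D spanned 5.49 to 19.7, and such intervals cover counting error only. Counts are compared here between libraries for one gene, and not between genes, since the CDS lengths behind these counts were not used.

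The first question was how efficiently the receptor mRNAs were translated in the brain of vehicle-treated mice. Chrm2 and Htr2a had the highest TEs among the 8 receptors that could be measured, while Chrm1, Chrm4 and Chrm3 lay near the middle of all genes and Htr1b lay below it. In edgeR's quasi-likelihood test of footprints against RNA-Seq, Chrm2 and Htr2a were called higher and Htr7 lower at an adjusted p under 0.05 and a change over 2-fold. That is 2 of 9 receptors higher, against 13.2% of all 11797 genes tested, and 1 of 9 lower, against 17.6%.

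**Figure D2:**
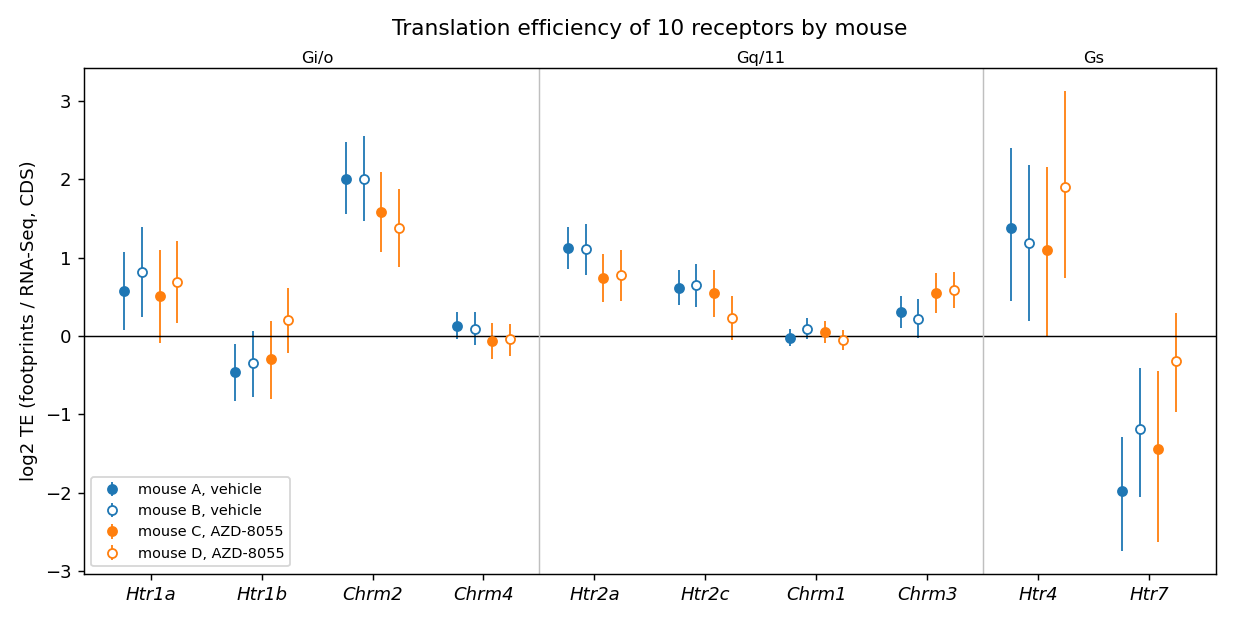
Log2 TE of 10 receptor genes in mice A and B (vehicle) and C and D (AZD-8055), with exact 95% intervals that cover counting error only. Chrm2 lies at 2.00 in both vehicle-treated mice and Htr2a at 1.12 and 1.11, while the intervals of Htr4 and Htr7 are wide.

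Among the Gi/o-coupled receptors, Chrm2, which acts as an autoreceptor on cholinergic terminals and is also found on cortical interneurons, was covered by 192 and 81 footprints and by 53 and 46 RNA-Seq reads in mice A and B. Its log2 TE was 2.00 and 2.00 in mice A and B, a ratio of 4.01 and higher than that of 98.4% of 10882 genes. The values of both mice lay closer together than counting error, since the interval of mouse A alone spanned 1.56 to 2.47. The edgeR estimate was 2.06 ± 0.20 (SE, 95% interval 1.63 to 2.49, adjusted p = 1.64e-07).

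Chrm4, the inhibitory muscarinic receptor of striatal projection neurons, had 578 and 282 footprints and 584 and 602 RNA-Seq reads. Its log2 TE was 0.13 and 0.09 in mice A and B, a mean of 0.11 ± 0.03 (SD, n = 2). The edgeR estimate of 0.16 ± 0.09 (SE) was not called (adjusted p = 0.109).

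Htr1a, the inhibitory receptor on the soma and dendrites of serotonergic and pyramidal neurons, had 83 and 48 footprints and 62 and 62 RNA-Seq reads. Its log2 TE was 0.57 and 0.82 in mice A and B, and in edgeR it was 0.72 ± 0.21 (SE, adjusted p = 0.00578), past the p threshold but under 2-fold.

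Htr1b, which sits on axon terminals and limits transmitter release, was the only one of the 8 receptors with a negative mean log2 TE. It had 104 and 64 footprints and 159 and 186 RNA-Seq reads, with a log2 TE of −0.46 and −0.35 in mice A and B. The edgeR estimate was −0.39 ± 0.18 (SE, adjusted p = 0.0589).

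Among the Gq/11-coupled receptors, Htr2a, the receptor through which classical psychedelics act, was covered by 356 and 157 footprints and by 181 and 166 RNA-Seq reads. Its log2 TE was 1.12 and 1.11 in mice A and B, a ratio of 2.17 and above 90.2% of genes. The edgeR estimate was 1.17 ± 0.17 (SE, 95% interval 0.82 to 1.53, adjusted p = 1.1e-05).

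Htr2c, its close relative and a receptor with dense expression in choroid plexus, had 398 and 183 footprints and 288 and 266 RNA-Seq reads. Its log2 TE was 0.61 and 0.65 in mice A and B, and the edgeR estimate was 0.68 ± 0.12 (SE, adjusted p = 8.39e-05), under 2-fold. Mouse B carried far more RNA of choroid plexus markers than the others. The 9 markers summed to 1081 CPM in its RNA-Seq library and 1252 CPM in its footprints, against 37.6 to 85.7 and 45.5 to 117 CPM in mice A, C and D. Htr2c was at 30.7, 26.9, 29.0 and 30.0 CPM in the RNA-Seq and at 43.0, 40.2, 40.0 and 34.5 CPM in the footprints of mice A to D in turn, so mouse B was the lowest in RNA-Seq and the second highest in footprints. The part of choroid plexus tissue in these values was not tested.

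Chrm3 and Chrm1 lay close to the median of all genes, which was 0.02 on the log2 TE scale. Chrm3, a Gq/11-coupled muscarinic receptor also known from smooth muscle and glands, had 438 and 205 footprints and 392 and 401 RNA-Seq reads, with a log2 TE of 0.31 and 0.22 in mice A and B. Chrm1 gave −0.02 and 0.09 in mice A and B. In edgeR, Chrm3 was at 0.32 ± 0.10 (SE, adjusted p = 0.00941), under 2-fold, and Chrm1 at 0.08 ± 0.07 (adjusted p = 0.339), with a 95% interval of −0.08 to 0.23.

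Of the Gs-coupled receptors, Htr7, a receptor linked to circadian timing, had 21 and 16 footprints against 92 and 83 RNA-Seq reads. Its log2 TE was −1.98 and −1.19 in mice A and B, with counting intervals of −2.74 to −1.29 and −2.06 to −0.40. The edgeR estimate was −1.59 ± 0.32 (SE, adjusted p = 0.000343). Without mouse A, which left 1 vehicle-treated mouse, it was −1.11 and Htr7 was no longer called. Without mouse B it was −1.96. Fewer animals also widen the spread of the test, so the lost call cannot be laid to the value of mouse A alone. Htr4 gave 1.38 and 1.19 from its few counts, with intervals of 0.44 to 2.40 and 0.19 to 2.19. It was not among the genes tested, and with the limit lowered to a mean of 10 counts the edgeR estimate was 1.25 ± 0.40 (SE, adjusted p = 0.0121), and it was called higher.

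In the order of TE over the 8 receptors, from Chrm2 through Htr2a, Htr1a, Htr2c, Chrm3, Chrm4 and Chrm1 down to Htr1b, the values of both mice overlapped between 1 pair of neighbours, Htr1a and Htr2c. The other neighbours did not overlap, although the gap from Chrm4 to Chrm1 was 0.08 and that from Chrm3 to Chrm4 was 0.15. These are point values, and counting intervals overlapped for some of these neighbours. Chrm4 in mouse A spanned −0.04 to 0.30 and Chrm1 in mouse B −0.04 to 0.23. Htr2a in mouse A spanned 0.86 to 1.39 and Htr1a in mouse B 0.24 to 1.39. The order of such neighbours is therefore not settled. Serotonin and acetylcholine receptors were interleaved in this order, and so were Gi/o- and Gq/11-coupled ones.

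The second comparison asked which receptor transcripts had a higher or lower share in the tagged polysomes of Camk2a-expressing neurons than in whole homogenate. RiboTag enrichment is the ratio of IP to input counts, here on exons. It is relative, so depletion does not show that a transcript is absent from these ribosomes. Of the marker lists, 4 of 10 excitatory genes were higher in the IP and 0 lower, while 9 of 10 interneuron, 7 of 8 astrocyte, 6 of 6 oligodendrocyte precursor, 6 of 6 oligodendrocyte, 5 of 6 microglial, 6 of 6 endothelial and 1 of 3 tested choroid plexus genes were lower. Of 11 striatal markers, 2 were lower and 0 higher. Camk2a itself, the gene whose promoter drives Cre, was at 0.27 on exon counts and not called. Its direction depended on the processing, with −0.01 after total-count scaling and −0.66 (edgeR adjusted p = 0.00528, under 2-fold) on CDS counts. On CDS counts 3 of the 10 excitatory neuron markers were higher and 1 lower, against 4 and 0 on exon counts.

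Chrm2, Htr2a and Htr1b were depleted from the IP, and Chrm1, Htr1a and Chrm4 had values above 0 that did not reach 2-fold. In edgeR, 3 of 9 receptors were called lower, against 21.8% of all 13254 genes tested, and 0 of 9 were called higher, against 11.7%. At an unadjusted edgeR p under 0.05 there were 5 receptors in either direction, against 9538 of all 13254 genes. DESeq2 called 3 receptors.

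**Figure D3:**
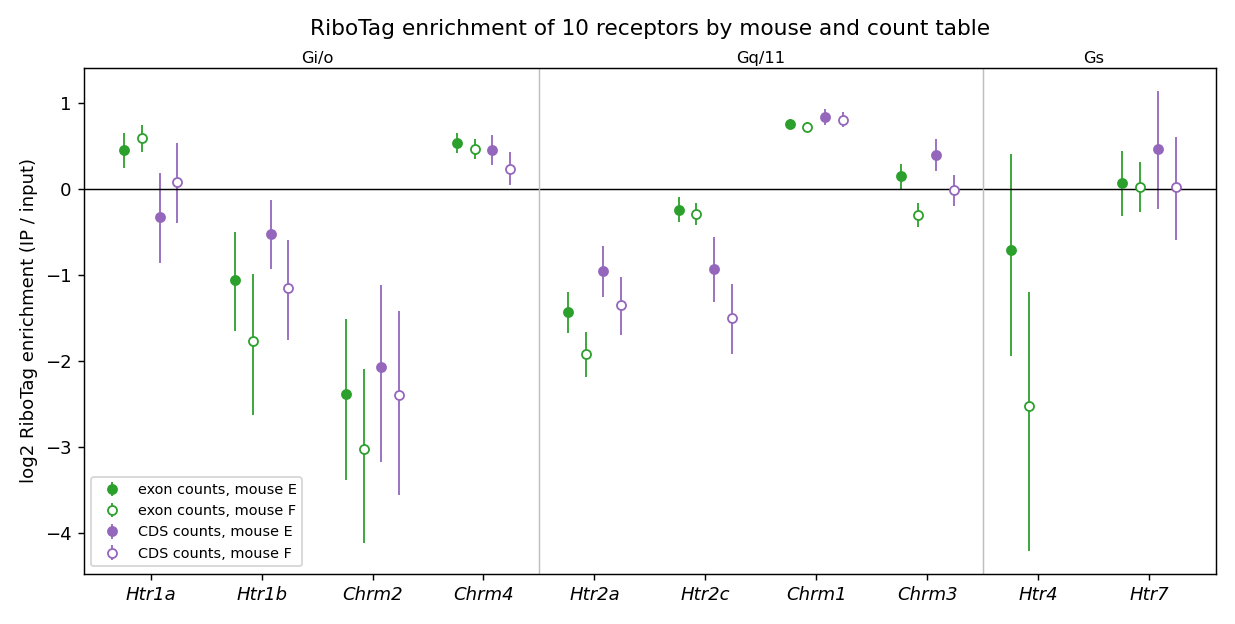
Log2 RiboTag enrichment (IP against input) of 10 receptor genes in mice E and F from exon counts and from CDS counts, with exact 95% intervals that cover counting error only. Values from fewer than 5 IP counts are left out (Htr4 on CDS). Chrm2 and Htr2a lie below −0.9 in both mice and both tables, Chrm1 lies above 0.7, and Htr2c and Htr1a shift between the tables.

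Chrm2 was the most depleted. Its exon counts were 92 (input) and 12 (IP) for mouse E and 133 and 10 for mouse F. The log2 enrichment was −2.39 and −3.02 in mice E and F, a ratio of 0.153 and lower than that of all but 4.21% of genes. In edgeR it was −2.81 ± 0.31 (SE, 95% interval −3.55 to −2.06, adjusted p = 0.000386). Htr2a had 721 input and 182 IP counts in mouse E and 893 and 144 in mouse F. Its log2 enrichment was −1.43 and −1.92 in mice E and F, and the edgeR estimate was −1.77 ± 0.19 (SE, adjusted p = 0.000346). Interneuron markers were depleted in the same libraries, with a summed CDS level of 1136 and 1162 CPM before the IP and 247 and 199 CPM after it. Their median in the IP test was −2.09. Medians were lower still for markers of astrocytes (−2.90), oligodendrocyte precursors (−3.07), oligodendrocytes (−2.81), microglia (−3.71) and endothelial cells (−3.66). The part of any of these cell types in the values of Chrm2 and Htr2a was not tested.

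Htr1b had 107 input and 35 IP exon counts in mouse E and 89 and 16 in mouse F, with a log2 enrichment of −1.06 and −1.76 in mice E and F. The edgeR estimate was −1.42 ± 0.46 (SE, adjusted p = 0.0314). The call was lost without the input of mouse E (−1.09, adjusted p = 0.117) and without the IP of mouse F (−0.87, adjusted p = 0.0904).

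Chrm1 was the receptor with the highest enrichment. It had 4452 input and 5119 IP exon counts in mouse E and 5240 and 5296 in mouse F, where the IP libraries were the shallower ones. Its log2 enrichment was 0.75 and 0.73 in mice E and F, above 75.7% of genes, and in edgeR it was 0.62 ± 0.10 (SE, adjusted p = 0.00187), past the p threshold but under 2-fold. Htr1a followed with 0.45 and 0.59 in mice E and F, and Chrm4 with 0.54 and 0.47. Neither was called in edgeR (0.41 ± 0.22 SE, adjusted p = 0.133 for Htr1a, and 0.39 ± 0.19 SE, adjusted p = 0.104 for Chrm4). With the mouse as a block, which pairs the input and IP of an animal, both passed the p threshold as Chrm1 did (edgeR adjusted p = 0.000374 for Htr1a and 4.51e-05 for Chrm4) and stayed under 2-fold.

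Htr7, Chrm3 and Htr2c lay closer to 0. Htr7 was at 0.07 and 0.03 in mice E and F from 140 and 254 input counts. Chrm3 was at 0.15 and −0.30 in mice E and F, which is a spread across 0. Htr2c was at −0.24 and −0.29 in mice E and F, and its edgeR estimate of −0.38 ± 0.11 (SE, adjusted p = 0.0232) was past the p threshold and under 2-fold. Htr4 fell below the count limit, with 24 input and 10 IP counts in mouse E and 47 and 5 in mouse F, a log2 enrichment of −0.71 and −2.52. With the limit lowered to a mean of 10 counts it was called lower, at −1.59 ± 0.51 (SE, edgeR adjusted p = 0.0298).

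The enrichment of several receptors depended on whether reads were counted on exons or on the CDS. Htr2c was called depleted on CDS counts, at −1.34 (edgeR adjusted p = 0.000388), from 283 input and 75 IP counts (mouse E) and 399 and 60 (mouse F). Htr1b was not called on CDS counts (−0.87, adjusted p = 0.0741). The edgeR values of Htr1a, Chrm3 and Htr7 changed sign, to −0.25, 0.06 and 0.08, and were not called in either table. Chrm2 (−2.35) and Htr2a (−1.27) stayed called lower, and Chrm1 was at 0.69. Both tables thus gave 3 called receptors, of which Chrm2 and Htr2a were shared. On CDS counts 3187 of all 12211 genes tested were called lower and 2493 higher. On exon counts 2888 of 13254 were called lower and 1545 higher.

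The share of exon counts that fell on the CDS moved in the same libraries. For Htr2c the inputs of mice E and F gave 28.4% and 27.4%, and their IPs gave 13.0% and 8.25%. For Htr1a it went from 27.7% and 18.7% to 11.9% and 9.16%, and for Chrm4 from 54.6% and 53.8% to 38.1% and 32.1%. Htr2a kept its share, at 63.0% and 57.8% before the IP and 64.8% and 59.7% after it. The median over 12216 genes was 67.3% for inputs and 52.4% for IPs, so a lower share in the IP was general, and Htr2c, Htr1a and Chrm4 fell further below their own input values than Htr2a. The log2 enrichment of Htr2c on exons exceeded that on CDS by 0.69 and 1.21 in mice E and F, above 91.9% of 12144 genes, whose median was −0.16. Why the shares moved was not tested.

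Htr1b went the other way, with more counts on the CDS than on exons in all 8 RNA-Seq libraries. In mouse A it had 159 CDS and 75 exon counts, and over the 8 libraries the CDS count was 182% to 223% of the exon count. Only 2.54% of 12216 genes had a CDS count above their exon count. In RefSeq on GRCm38.p6, the assembly that the mm10 of the submitters' processing notes corresponds to, Htr1b lies on chromosome 9 from 81628291 to 81633832, and the long noncoding RNA D430036J16Rik overlaps it by 1903 bases, from 81631930 to 81633832. The annotation used for the counts is not given in the sources used here, and the part of this overlap in the counts was not tested. Htr4 overlaps the long noncoding RNA Gm36316 by 33454 bases and the pseudogene Gm18653 by 637 bases, and 8 small RNA genes lie within Htr2c. Chrm3 overlaps the long noncoding RNA Gm26861 by 1584 bases, Chrm2 overlaps 9330158H04Rik by 244 bases, and Chrm4 overlaps the protein-coding gene Mdk by 31 bases. These overlaps are between whole gene spans, and whether they fall on counted exons was not checked. The RNA-Seq kit that the labels name, TruSeq V2, does not mark strand. Reads from exon stretches shared by different genes therefore could not be assigned to a single gene. With CDS counts above exon counts, for a reason that was not tested, the exon values of Htr1b are uncertain.

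Set against each other, the 2 ratios placed Chrm2 and Htr2a apart from the other receptors. Of 10835 genes with both values, 323 (2.98%) had a TE over 2-fold and a depletion over 2-fold in the IP, and Chrm2 and Htr2a were among them. The TE came from mice A and B and the enrichment from mice E and F, so no library is shared between the axes.

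**Figure D4:**
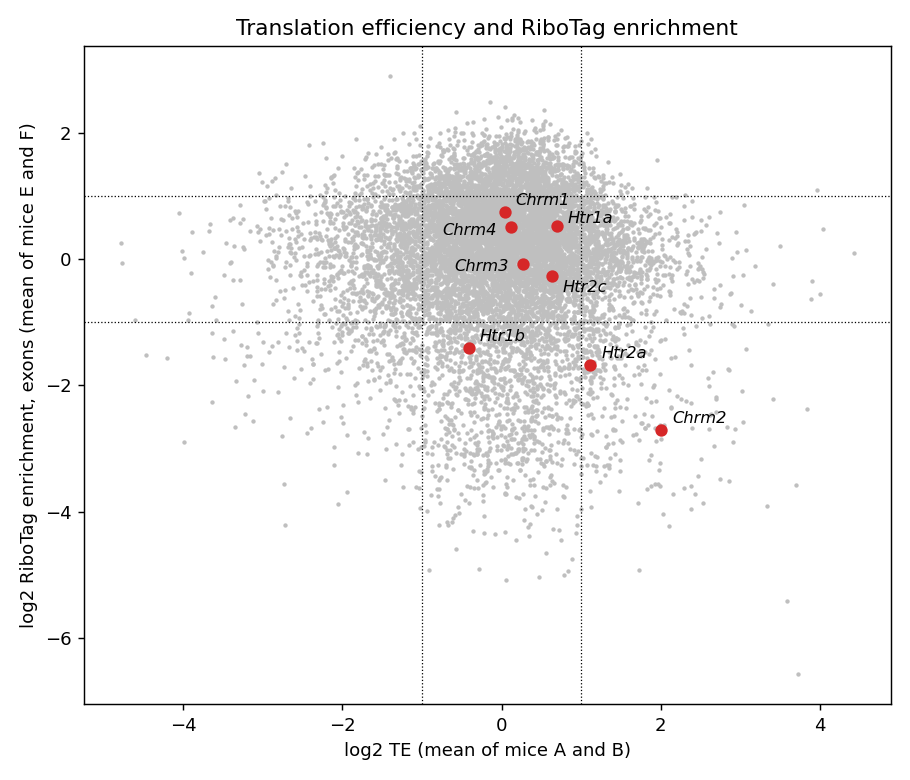
Log2 TE (mean of mice A and B) against log2 RiboTag enrichment on exons (mean of mice E and F). Grey points are 10835 genes, red points are the 8 receptors that passed both count limits, and dotted lines mark 2-fold. Chrm2 and Htr2a lie at the lower right, Htr1b lies low and left of 0, and the other 5 lie within the 2-fold lines on both axes.

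The genes nearest to each receptor in this plane, by Euclidean distance between log2 values averaged over 2 mice on each axis, were Ndnf and Xkr4 for Chrm2 (distances 0.018 and 0.080) and Gcc2 and Pcdhgb7 for Htr2a (0.037 and 0.046). Ndnf had a log2 TE of 2.02 and a log2 enrichment of −2.69, and Chrm2 had 2.00 and −2.70. For Htr1b the nearest were Pnp and Cox6a2, for Htr2c Hrsp12 and Ppig, for Chrm1 Plcxd1 and Actr3, for Htr1a Gtpbp4 and Slc25a46, for Chrm3 Agap1 and Thrsp, and for Chrm4 Eif3l and Gne. These distances lay between 0.008 and 0.040. The counting intervals of every receptor were wider than its distances, and Chrm2 alone had a log2 enrichment of −2.39 and −3.02 in mice E and F. Which genes are nearest is therefore not settled, and the names are a description only.

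The whole-tissue RNA-Seq libraries of mice A to D and the inputs of mice E and F can be set side by side for each receptor. On the CPM scale of the CDS counts, and among the 9 receptors with a mean of 37 counts or more, 3 were higher in both inputs than in all 4 other mice, against 24% of 12419 genes with such a mean, and 3 were lower, against 20.2%. No test of these differences was run, and the shares are given as a description. Htr2a was higher, at 36.1 and 33.1 CPM in the inputs against 16.8 to 24.8 CPM, and so were Chrm3 (46.7 and 53.9 against 37.5 to 41.7 CPM) and Htr1a (8.90 and 8.28 against 6.27 to 7.84 CPM). Htr7 was lower, at 3.66 and 5.20 CPM against 7.44 to 9.79 CPM, as were Chrm4 (53.4 and 42.6 against 60.9 to 66.2 CPM) and Htr2c (22.5 and 25.6 against 26.9 to 30.7 CPM). Htr4, below the limit, was at 0.715 and 0.642 CPM against 1.03 to 1.99 CPM, and the exact 95% Poisson interval of its 9 reads in the input of mouse E (0.327 to 1.36 CPM) covered the value of mouse D. Striatal markers were lower as well, with a sum of 1261 and 1062 CPM in the inputs and 1876 to 2312 CPM in the other mice, and their part in these differences was not tested. The sets came from different mice, and mice A to D received vehicle or AZD-8055 by gavage while mice E and F are labelled untreated. Animal, treatment, dissection and preparation therefore cannot be told apart.

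The third comparison asked whether 1 h of mTOR inhibition changed the receptors. None of them passed a test at the level of RNA, footprints or TE. For RNA, edgeR called 0 of 9 receptors, with 0 at an unadjusted p under 0.05, and DESeq2 called 0. Of all 12182 genes, 0.0575% were called higher and 0.0903% lower, and 1004 had an unadjusted edgeR p under 0.05. For footprints, edgeR called 0 of 8 receptors, and DESeq2 called 0, against 0.0468% of 10695 genes called higher and 0.982% lower by edgeR. At an unadjusted edgeR p under 0.05 there was 1 receptor, against 1369 of these genes. For TE, edgeR called 0 of 9 receptors, and DESeq2 called 0, against 0.00848% of 11797 genes called higher and 0.297% lower by edgeR. At an unadjusted edgeR p under 0.05 there were 0 receptors in this fit, against 796 of these genes, and other settings are given below. DESeq2 gave no adjusted p, and so could make no call, for Htr1a, Htr1b and Chrm2 in footprints and TE and for Htr7 in TE. The vehicle-treated mice enter all 3 tests and the baseline TE, so the values are given side by side.

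**Figure D5:**
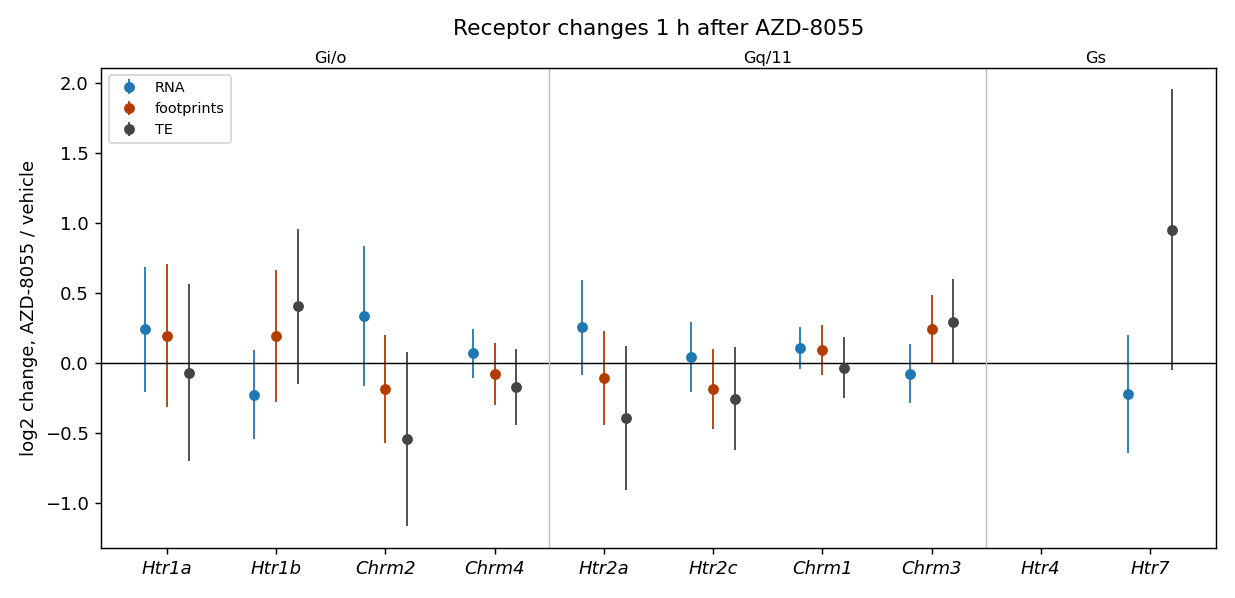
Log2 change of RNA, footprints and TE between mice treated with AZD-8055 and with vehicle, from edgeR, with 95% intervals. Htr4 had too few counts for all 3 tests and Htr7 for that of footprints. All intervals include 0 except that of the Chrm3 footprints (0.00412 to 0.48).

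Chrm1 gave the tightest bounds, owing to its counts. In mice C and D it had 559 and 718 footprints and 1646 and 1703 RNA-Seq reads, with a log2 TE of 0.05 and −0.05 in mice C and D. Its TE change was −0.03 with a 95% interval of −0.25 to 0.19, its RNA change 0.11 (−0.04 to 0.26) and its footprint change 0.09 (−0.08 to 0.27). A change of Chrm1 by 2-fold thus lay outside all 3 intervals.

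Chrm2 and Htr2a, the receptors with the highest TE, both had lower values after AZD-8055 that were within the spread of the test. Chrm2 had 66 and 76 footprints and 67 and 67 RNA-Seq reads in mice C and D, and its log2 TE was 1.59 and 1.38 there against 2.00 in both vehicle-treated mice. The TE change in edgeR was −0.54 ± 0.29 (SE, 95% interval −1.16 to 0.08, adjusted p = 0.758). Htr2a had 137 and 144 footprints and 250 and 193 RNA-Seq reads, with a log2 TE of 0.74 and 0.77 in mice C and D, and its TE change was −0.39 ± 0.24 (SE, adjusted p = 0.815). For both genes the footprint estimate was negative (−0.18 and −0.11) and the RNA estimate positive (0.34 and 0.26).

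Chrm3 was the receptor with an unadjusted p under 0.05 for footprints. It had 195 and 261 footprints in mice C and D and 406 and 399 RNA-Seq reads, with a log2 TE of 0.55 and 0.58 in mice C and D. The footprint change was 0.24 ± 0.11 (SE, edgeR unadjusted p = 0.0468, adjusted p = 0.384), and the TE change was 0.30 ± 0.14 (adjusted p = 0.743). Htr1b, with 45 and 74 footprints and 168 and 147 RNA-Seq reads, had a TE of −0.29 and 0.21 in mice C and D, and a TE change of 0.41 ± 0.26 (SE, edgeR adjusted p = 0.82).

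The estimates of Htr2c, Chrm4 and Htr1a were closer to 0. Htr2c had 140 and 164 footprints in mice C and D and a log2 TE of 0.55 and 0.23, with a TE change of −0.25 (95% interval −0.62 to 0.12). Chrm4 had 209 and 281 footprints and a log2 TE of −0.06 and −0.04, with a change of −0.17 (−0.44 to 0.10). Striatal markers summed to 2171 and 2312 CPM in the RNA-Seq of mice C and D against 1938 and 1876 CPM in mice A and B. In the RNA test, the 11 striatal markers lay between 0.13 and 0.45 with a median of 0.23. Of them 1 was called higher, against 0.0575% of all genes tested. Chrm4 RNA stood at 66.2 and 62.3 CPM in mice C and D against 62.2 and 60.9 CPM. The part of the striatal shift in the Chrm4 values was not tested. Htr1a had 37 and 55 footprints and a log2 TE of 0.52 and 0.69, with a change of −0.07 (−0.70 to 0.57).

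Htr7 had the largest estimate of the TE change and one of the least certain. It had 9 and 30 footprints in mice C and D against 75 and 86 RNA-Seq reads, and a log2 TE of −1.45 and −0.32 in mice C and D. The change was 0.95 ± 0.47 (SE, 95% interval −0.05 to 1.96, edgeR adjusted p = 0.753). A 2-fold rise of the TE of Htr7 and a 2-fold fall of that of Chrm2 lay inside their intervals, and a 2-fold change in the other direction lay outside them.

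The TE of 8 receptors could be read in all 4 mice. It was lower in both AZD-8055 mice than in both vehicle-treated mice for 4 of them (Htr2a, Htr2c, Chrm2 and Chrm4), against 21.2% of 9890 genes, and higher for 2 (Htr1b and Chrm3), against 16.1%. None of these 6 receptors passed the test above.

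The machinery around the receptors was followed with lists of related genes, which were chosen with earlier results of these data known. Among 9 other serotonin and muscarinic receptor genes, 3 entered the test of TE. Htr5a was called higher (1.22), while Htr6 (−0.57) and Htr3a (−0.03) were not called. Htr6, with 39 and 14 footprints in mice A and B, was under the limit for reading a TE. In the IP, 2 of 5 tested were lower, Htr3a at −3.02, an ion channel of cortical interneurons, and Htr1f at −1.18. Among 10 nicotinic receptor genes, Chrna7 was called higher in TE (1.74, 1 of 3 tested) and lower in the IP (−1.48, 1 of 5 tested).

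Several genes that make or remove the transmitters were depleted from the IP. Of 4 tested genes of acetylcholine synthesis and breakdown, 3 were lower. Chat, which makes acetylcholine, had 66 and 88 input CDS counts but 0 and 1 IP counts. Slc5a7, the choline transporter, was at −3.22 and Bche, a cholinesterase, at −3.31, while Ache was at −0.05 and not called. Of 4 tested genes of serotonin synthesis and transport, Ddc (−2.74), the decarboxylase that forms serotonin, and Maob (−1.21), a monoamine oxidase, were lower. In TE, Slc5a7 was called higher (1.88, 1 of 5 tested), and so was Tph1 (1 of 4 tested). Tph1 had 273 and 186 footprints on only 4 and 6 RNA-Seq reads in mice A and B, under the limit for reading a TE.

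The genes that act downstream of the receptors were counted by G protein class, against 13.2% of all genes tested called higher in TE and 17.6% called lower. Of 15 Gq/11 pathway genes, 6 were called higher in TE and 1 lower, with a median of 0.51 against −0.01 over all genes tested. Among them were Dgki (2.32), a diacylglycerol kinase, Prkca (2.06), a protein kinase C, and Gnaq (1.80), the G protein subunit itself, while Plcb3 was lower (−1.08). Of 12 Gi/o pathway genes, 3 were higher and 0 lower with a median of 0.47, among them Kcnj6 (2.28), an inward rectifier channel, Rgs4 (1.97), which ends Gi/o and Gq signals, and Gnai1 (1.10). Of 16 Gs pathway genes, 4 were higher and 2 lower with a median of 0.59, for example Prkacb (1.62), a catalytic subunit of protein kinase A, and Pde4a (−1.94), a phosphodiesterase.

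Of 10 genes for proteins that bind or desensitize the receptors, 5 were called lower in TE and 0 higher, against 17.6% and 13.2% of all genes tested, with a median of −0.67, among them the scaffold Dlg4 (−2.20), the receptor kinases Grk5 (−1.66) and Adrbk1 (−1.36) and the arrestin Arrb2 (−1.09). In the IP, S100a10, a partner of Htr1b and Htr4, was higher (1.37) and Cav1 lower (−2.12). Of all genes tested in the IP, 21.8% were lower and 11.7% higher. Of the pathway genes, 5 of 15 in the Gq/11 list were lower in the IP, among them Plcb3 (−2.98), and 0 were higher. In the Gi/o list 1 was higher, Rgs14 (1.13), and 1 lower, Kcnj3 (−1.12), and in the Gs list 1 was higher, Prkar1b (1.04), and 2 lower, Adcy9 (−1.44) and Adcy3 (−1.17). After AZD-8055, 0 genes of these 8 lists were called by edgeR in the tests of RNA, footprints and TE.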

How the data were processed

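The authors deposited whole-number counts of reads per gene, without normalization, in a table for the CDS (all 12 libraries) and another for exons (8 RNA-Seq libraries). Per the study's methods, footprint reads were trimmed, freed of poly(A) stretches and rRNA, aligned and counted in a strict intersection mode. The submitters' processing notes name Bowtie2, TopHat2, HTSeq and the build mm10. The annotation is not given in the sources used here. All value columns matched a sample.

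For TE and enrichment, counts were first scaled by size factors from DESeq2 1.42.0. Tests used edgeR 4.0.16 (R 4.3.3) with TMM, the quasi-likelihood test and Benjamini-Hochberg adjustment over all genes that averaged 37 or more counts, at 0.05. TE and IP calls also needed a change over 2-fold. Baseline TE and TE change came from 1 fit of the 8 libraries of mice A to D. edgeR stands in for the study's RiboDiff. The fits were checked on simulated counts with few changed genes, a fixed spread and no pairing by mouse. The data differ in all of these, so the check does not give the error rates of the tests here. Ratios have exact Clopper-Pearson intervals and counts exact Poisson intervals, which cover counting error only.

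Libraries with the same letter come from 1 animal. The difference between mice correlated across genes at 0.241 (A and B, 9310 genes), 0.196 (C and D) and 0.549 (E and F, 11712 genes). With 2 mice per group, p-values rest on few animals.

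All 10 receptors are named. Of each list the called genes are named, up to 4, or else the highest and lowest, with some further genes named after their values were seen. For each receptor the 2 nearest genes are named. The receptors and lists were chosen with earlier results of these data known. The alternatives were DESeq2, other scalings, other count limits, the other count table, a block for the mouse, calls by p alone, a pseudocount of 1 and leaving out each mouse or library.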

Additional observations from a re-analysis of the deposited data

How the results depend on the processing

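The calls of Chrm2 and Htr2a in baseline TE and in the IP kept their direction and stayed called under every alternative run, and no receptor was called in the changes after AZD-8055 under any of them. For footprints and TE, DESeq2 could not call the receptors to which it gave no adjusted p. Leaving out 1 mouse or library ended the calls of Htr7 in baseline TE and Htr1b in the IP, as given above. The mouse letters pair libraries of the same animal. With the mouse as a replicate block the TE change called 43 genes against 36, and no call of a receptor changed, although Htr1a and Chrm4 passed the p threshold in the IP. In TE change, Chrm3 and Htr7 had an unadjusted edgeR p of 0.047 and 0.0465 with this block. Without a count limit it was 0.0373 for Htr2a and 0.0384 for Htr7, and with total-count scaling 0.0296 for Chrm3. None of these stayed under 0.05 after adjustment. With calls by p alone, 6 receptors passed in baseline TE and 5 in the IP, and 8703, 102 and 9194 genes passed in baseline TE, TE change and IP against 3638, 36 and 4433. Without a count limit, 5787 genes were called in baseline TE, 57 in TE change, 78 in RNA against 18, and 264 in footprints against 110. For RNA, DESeq2 called 28 genes and total-count scaling 29. Leaving out 1 mouse gave 13 to 36 genes for RNA and 64 (without mouse B) to 837 (without mouse C) for footprints. Without mice A and D the RNA count was 33 and 36, and without mouse D the footprint count was 265. Total-count scaling moved the median of all genes from −0.03 to −0.31 in the IP and from −0.01 to −0.15 in baseline TE, and the calls from 1545 higher and 2888 lower to 774 and 3653 in the IP, and from 1559 and 2079 to 1213 and 2440 in baseline TE.

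Signs turned only for receptors that were not called. In baseline TE, Chrm1 was at −0.061 with total counts and −0.0076 without a count limit, and ranged from −0.0015 to 0.17 when 1 mouse was left out. In TE change, Chrm1 was at 0.0052 with total counts and ranged from −0.12 to 0.047, and Htr1a from −0.23 to 0.069. For RNA, Chrm3 was at 0.044 on exon counts and Htr2c ranged from −0.054 to 0.15, and for footprints Htr2a ranged from −0.30 to 0.090. In the IP on CDS counts, Htr1a was at −0.25, Htr7 at 0.078 and Chrm3 at 0.056, and with the replicate block, which was added after the data had been seen, at −0.25, 0.088 and 0.055. Htr7 was at 0.0088 with a limit of 10 counts and 0.016 without one, and ranged from −0.31 to 0.17 when 1 library was left out. The low footprint counts of Htr4 and Htr7 limit what can be said of both Gs-coupled receptors.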

Other observations

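Some receptor and transmitter genes outside the 10 had footprints with almost no matching RNA. Tph1, the tryptophan hydroxylase of peripheral tissues and pineal gland, had 273, 186, 104 and 146 footprints in mice A to D and 2 to 8 reads in each of the 8 RNA-Seq libraries. Htr3b, a subunit of the serotonin-gated channel, had 12, 10, 6 and 7 footprints and at most 1 RNA-Seq read per library, and Chrna6, a nicotinic subunit, had 14, 12, 8 and 14 footprints and at most 4 RNA-Seq reads. The cause was not tested, and the TE of such genes rests on too few RNA-Seq reads to be read as a level of translation.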
